A study of Drosophila melanogaster with 3 samples.

Results

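The 3545 regions described here are the second tier of a ranked ChIP-seq peak list from fly embryos (*Drosophila melanogaster*). The pooled list of 30000 peaks was sorted by the signal that the authors' peak caller gave each peak, and ranks 3546 to 7090 were kept. The members were therefore chosen by their pooled signal, and that signal is given below only as a description. Ranks 1 to 3545 are called the first tier, and they were exactly the 3545 peaks that the authors' optimal list holds, so the second tier is the block of equal size just below the authors' own limit. The 22910 peaks at ranks 7091 to 30000 are called the lower tier. Chromatin came from whole embryos of both sexes, 0 to 24 hours old, of 1 transgenic strain named CG6854-GFP whose insertion targets CTPsyn, and the precipitating antibody recognised GFP (green fluorescent protein), per the labels' descriptions. The labels call the fusion CG45071-eGFP, with GFP at the carboxyl end. The labels thus name the tagged protein in different ways, and these names were not reconciled here. CTPsyn is treated below as the target of the insertion. All 3 biological replicates belonged to 1 group, with no other genotype, treatment or stage, so the comparisons are between tiers and between replicates. Peaks are those of the whole embryo, and no cell type can be assigned to them.

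CTP synthase, the product of CTPsyn, makes the nucleotide CTP from UTP. A relaxed list of this kind is made long so that an analysis of irreproducible discovery rate (IDR) can ask how far down the ranking replicates stay alike, and it therefore holds background as well as binding. In flies, promoters fall into broad kinds by the short sequences near their start sites: a TATA box and an initiator at many regulated genes, the DRE and the M1BP element at many housekeeping genes, a pyrimidine-rich start at ribosomal protein genes, and GA repeats bound by GAGA factor at many developmental and heat shock genes. A transcription start site is written TSS below.

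Windows of up to 100 bp on each side of 6 second-tier summits are printed as examples. They are on the plus strand of Release 6 (dm6) and clipped where an annotated untranslated region began. Summits inside such a region were passed over, so the examples are not a cross-section of the tier. Every promoter summit among them lies upstream of its nearest protein-coding TSS. Capitals mark matches on either strand to GAGAG (the GAGA element), CGATA (the core of the DRE), TATAAA (the TATA box), CACACACA (a CA repeat) or GGTCACACT (the M1BP element). RpS9 (chr3L:9511317-9511499) and mRpS26 (chr3L:18106358-18106558), for a cytoplasmic and a mitochondrial ribosomal protein, hold none of them. Nup160 (chr2L:11123618-11123776), for a nuclear pore protein, has 1 TATA match. The promoter of r (chrX:16655819-16656019), the gene rudimentary for the enzyme that starts pyrimidine synthesis, has 1 GAGA match. The window near corto (chr3R:5074107-5074307), the strongest intergenic member that could be printed, has 1 CGATA match. The tara window (chr3R:16241306-16241506), inside an intron, has 5 overlapping CA matches and 2 TATA matches.
RpS9: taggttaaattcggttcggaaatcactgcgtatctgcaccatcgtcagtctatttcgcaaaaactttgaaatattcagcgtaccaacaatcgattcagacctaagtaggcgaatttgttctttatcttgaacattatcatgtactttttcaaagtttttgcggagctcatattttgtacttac
mRpS26: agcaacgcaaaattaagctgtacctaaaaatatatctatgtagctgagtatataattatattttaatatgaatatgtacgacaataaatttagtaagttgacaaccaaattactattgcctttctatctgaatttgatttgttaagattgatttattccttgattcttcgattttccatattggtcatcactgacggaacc
Nup160: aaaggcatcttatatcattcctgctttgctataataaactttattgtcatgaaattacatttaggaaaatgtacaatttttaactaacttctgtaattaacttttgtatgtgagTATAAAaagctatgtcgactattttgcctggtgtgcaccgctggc
r: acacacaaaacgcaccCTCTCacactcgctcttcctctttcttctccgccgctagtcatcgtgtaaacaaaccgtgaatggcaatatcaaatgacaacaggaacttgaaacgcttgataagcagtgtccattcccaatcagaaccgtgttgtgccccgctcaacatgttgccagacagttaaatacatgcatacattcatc
corto: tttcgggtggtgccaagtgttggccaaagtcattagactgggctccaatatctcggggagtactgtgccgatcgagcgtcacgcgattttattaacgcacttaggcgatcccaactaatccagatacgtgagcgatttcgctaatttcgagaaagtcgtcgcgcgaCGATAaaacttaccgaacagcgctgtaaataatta
tara: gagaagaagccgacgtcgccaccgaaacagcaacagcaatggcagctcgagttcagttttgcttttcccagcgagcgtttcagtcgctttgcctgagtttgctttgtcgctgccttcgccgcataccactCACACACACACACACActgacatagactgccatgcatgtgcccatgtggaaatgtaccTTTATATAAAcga

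The pooled signal of the second tier ran from 113.684 down to 76.5996, a 1.48-fold range, with a median of 90.7. The first tier covered a 21.1-fold range above it, from 2397 to 113.685 with a median of 167, and the lower tier ran from 76.5953 to 31.0 with a median of 42.3. The peaks on either side of the limits were alike in signal: the promoter peak of IP3K1 closed the first tier at 113.685, and that of Ubc6, for a ubiquitin-conjugating enzyme, opened the second at 113.684. At the lower end, hng3 at 76.5996 was inside and CG3368 at 76.5953 was outside. The −log10 q-value in the authors' list was 3.01 for the first member and 1.77 for the last. In width 3541 of the 3545 members had 436 bp, the length shared by 2830 first-tier peaks.

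Nearly as many second-tier as first-tier summits lay in promoters, and far more than in the lower tier. A summit within 500 bp of any annotated TSS counted as promoter, which took in 48.2% of the second tier (1707 of 3545, Wilson 95% interval 46.5 to 49.8), 52.8% of the first tier and 27.8% of the lower tier. Introns held 36.6%, 34.4% and 43.6% of the same tiers, and intergenic sequence held 11.9%, 10.1% and 17.4%. Coding exons held 20 second-tier summits (0.564%), against 0.226% of the first tier and 6.56% of the lower tier. Intervals cover counting error only and treat peaks as separate, although 40.1% of the members overlapped another pooled peak, against 38.1% of the first tier.

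**Figure D1:**
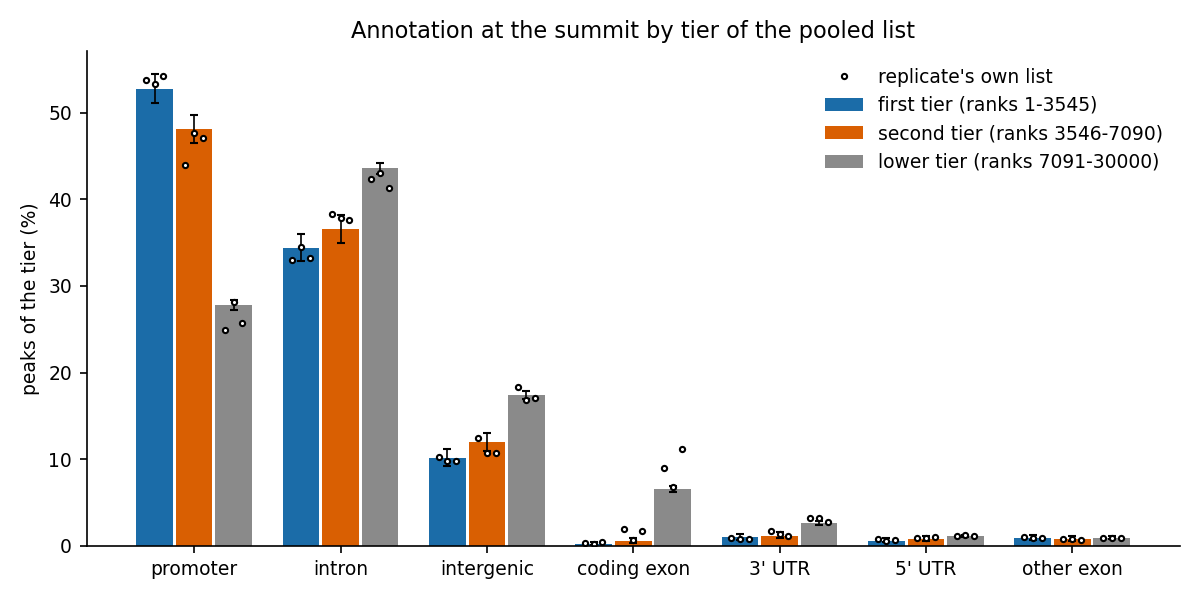
Share of the peaks of each tier (vertical axis, %) by annotation at the summit (horizontal axis), for the pooled list (bars, with Wilson 95% intervals) and for each replicate's own list divided at the same ranks (open points). Second-tier bars stand close to the first tier for promoters (48.2% against 52.8%) and well above the lower tier (27.8%), and coding exons are rare in both upper tiers.

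The difference of 2 shares was taken with Newcombe's 95% interval, and again within each replicate's own list divided at the same ranks. The second-tier promoter share differed from that of the lower tier by 20.4 percentage points (18.6 to 22.1), with 19.0, 19.6 and 21.4 points in replicates 1 to 3. From the first tier it differed by −4.65 points (−6.97 to −2.33), and by −9.90, −5.59 and −7.14 points in the replicates. A two-sided exact sign-flip permutation test over the 3 replicates gave p = 0.25 for both, the smallest p that 3 replicates allow. The direction against the first tier turned with the definition of a promoter: at a window of 100 bp the difference was 1.97 points (0.07 to 3.87). Against only the next 3545 peaks below, ranks just under the second tier, the promoter difference was 7.90 points (5.59 to 10.2).

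Coding exons held a smaller share of the second tier than of the lower tier. The difference was −6.00 points (−6.38 to −5.56), and −7.05, −6.09 and −9.43 points in the replicates, with the same permutation p of 0.25. Against only the next 3545 peaks it was −1.21 points (−1.74 to −0.72). Against the first tier it was 0.339 points (0.043 to 0.664) in the pooled list, and 1.72, 0.508 and 1.35 points in the replicates, each with an interval that left out 0. Introns differed from the lower tier by −7.03 points (−8.73 to −5.31) and intergenic sequence by −5.44 (−6.58 to −4.23), both in the same direction in 3 of 3 replicates. Against only the next 3545 peaks these differences were −4.37 points (−6.63 to −2.10) and −1.78 (−3.33 to −0.22). Against the first tier the intron difference of 2.17 points had an interval that reached 0 (−0.06 to 4.40) in the pooled list. In the replicates it was 5.36, 3.33 and 4.34 points, each with an interval that left out 0, and a promoter window of 100 bp turned the pooled value to −1.92 (−4.24 to 0.40). The intergenic difference of 1.81 points (0.35 to 3.27) lost its call when peaks were ranked by −log10 q (1.18 points, −0.27 to 2.64), and a promoter window of 100 bp turned it to −3.72 (−5.63 to −1.81). Replicates gave 2.14, 1.02 and 0.903 points, with an interval that left out 0 in 1 of the 3.

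Among the 1838 members outside promoters, introns held 70.5%, against 72.9% in the first tier and 60.4% in the lower tier. The difference from the whole lower tier was 10.2 points (7.90 to 12.3), with 11.97, 12.5 and 15.6 points in the replicates. It was not taken against only the next 3545 peaks. Of the last 709 members by rank, 326 summits lay in promoters and 250 in introns. Of the 709 peaks just below, 303 lay in promoters and 277 in introns. The difference from the first tier had an interval that held 0 (−5.32 to 0.64). Intronic members lay a median of 3164 bp from the nearest protein-coding TSS, between the 2461 bp of the first tier and the 4259 bp of the lower tier. In intergenic sequence the medians were 3848, 3402 and 4826 bp in the same order.

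The position of the summit around the TSS set the second tier apart from the first. Of the 1591 members within 500 bp of a protein-coding TSS, 836 (52.5%, 50.1 to 55.0) lay upstream, against 70.0% of 1757 in the first tier and 50.1% of 5731 in the lower tier. Against the first tier the difference was −17.5 points (−20.7 to −14.2), and −15.1, −14.7 and −11.7 points in the replicates (two-sided exact permutation p = 0.25). Among summits within 100 bp of a TSS it was −8.68 points (−13.9 to −3.43). Against the lower tier it was 2.40 points with an interval that held 0 (−0.38 to 5.16), although replicates gave 3.29, 7.65 and 6.74 points. The median position was −12 bp in the second tier, −94 bp in the first and −1 bp in the lower.

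Second-tier summits were also the most tightly gathered around the start site of the 3 tiers. Within 100 bp of the TSS lay 45.5% of those within 500 bp, against 38.0% in the first tier and 36.5% in the lower. The differences were 7.49 points (4.14 to 10.8) and 9.02 points (6.28 to 11.8), positive in 3 of 3 replicates for both. In replicate 3 the first of these was only 1.55 points. Start sites on both strands within 500 bp, as at divergent gene pairs, were found for 21.7% of these members, 23.5% in the first tier and 16.3% in the lower. The difference was 5.33 points (3.15 to 7.63) from the lower tier, and its interval held 0 against the first (−4.65 to 1.02).

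**Figure D2:**
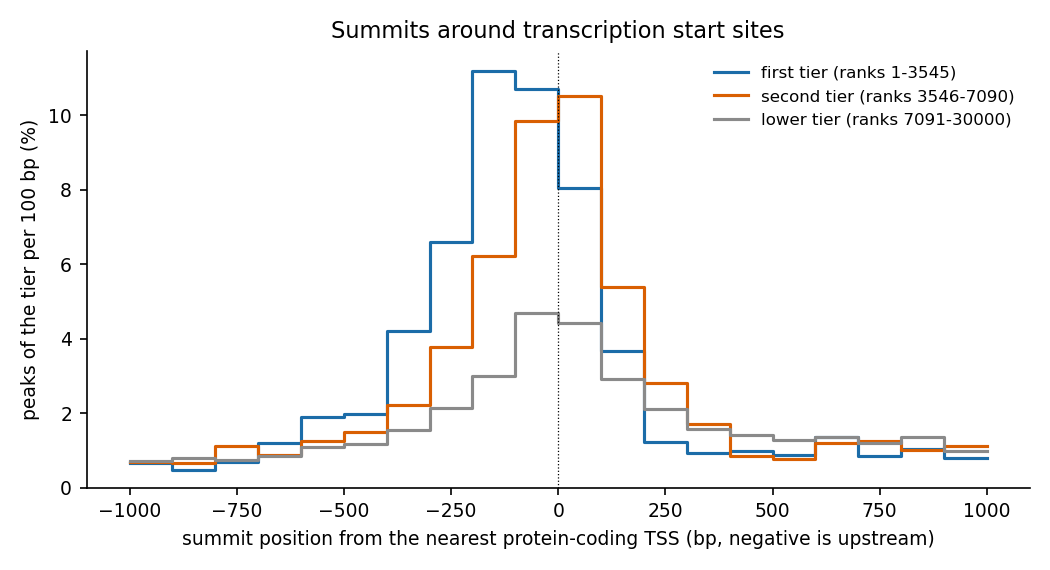
Position of the summit relative to the nearest protein-coding TSS (horizontal axis, bp, negative upstream) against the share of the tier's peaks in each 100 bp (vertical axis, %), 1 line per tier. The first tier peaks upstream with a median of −94 bp, and the second tier is centred near the start site with a median of −12 bp.

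Along the ranking, in bins of 709 peaks, the promoter share showed no step at the limit of the optimal list. It was 50.5% in the last bin of the first tier, 50.9% in the first bin of the second tier and 46.0% in its last bin, and then 42.7% in the first bin below. The upstream share was 84.7% in the strongest bin and 62.2% (56.9 to 67.2) in the last of the first tier. It was 52.9% (47.6 to 58.2) in the next bin and stayed between 50.5% and 54.5% through the second tier. The intervals of the neighbouring bins at the limit overlap.

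**Figure D3:**
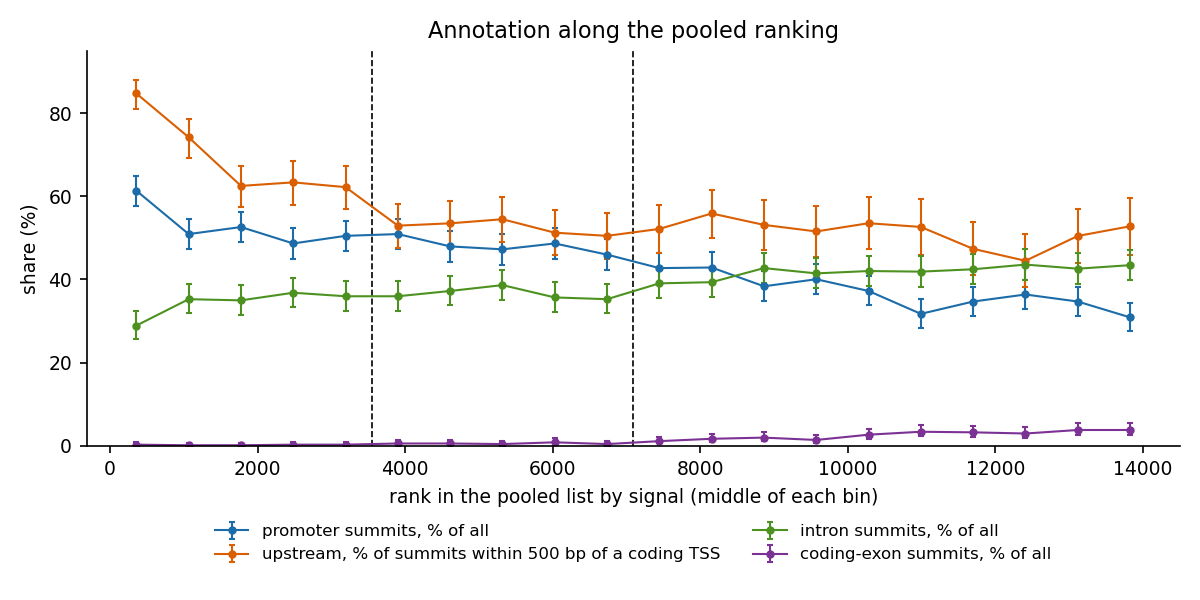
Shares of summits (vertical axis, %, with Wilson 95% intervals) in 20 bins of 709 peaks by pooled rank (horizontal axis), with dashed lines at the limits of the second tier; weaker ranks past the last bin are not drawn. The promoter share passes the upper limit without a step (50.5% and 50.9%), and the upstream share lies at 62.2% before it and 52.9% after it.

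Base composition lay between the tiers on either side. In windows of 201 bp around the summit the median GC content was 39.8% in the second tier, 36.3% in the first and 42.8% in the lower. For promoter peaks alone the medians were 42.8%, 37.8% and 43.8%, and for the others 37.3%, 34.8% and 42.3%. The part of this composition in the motif shares below was not tested.

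Of 18 short motifs searched on both strands in those windows, 4 differed from the first tier with an interval that left out 0, and 11 from the lower tier. The TATA box (TATAAA), which TBP binds, was in 27.2% of the second tier, 34.9% of the first and 22.4% of the lower. The difference from the first tier was −7.64 points (−9.79 to −5.49), with −7.39, −7.19 and −7.59 points in the replicates. At promoter peaks the shares were 22.96%, 33.7% and 21.6%, with a difference of −10.7 points (−13.7 to −7.80) from the first tier and one whose interval held 0 from the lower (−0.84 to 3.63). Outside promoters the second tier differed by −4.99 points (−8.12 to −1.86) from the first tier and by 8.56 points (6.39 to 10.8) from the lower. Over all 19252 protein-coding TSS windows of the same length the share was 26.9%, above that of second-tier promoter peaks and below that of first-tier ones. TSS windows here and below are centred on the TSS, while those of promoter peaks are centred on summits up to 500 bp from one. Elements placed at a fixed distance from the TSS can therefore fall outside a peak window. The CA repeat (CACACACA) was in 7.48%, against 5.28% in the first tier, a difference of 2.20 points (1.06 to 3.34) and of 1.86, 1.07 and 1.75 points in the replicates. It was 3.54 points (1.89 to 5.24) at promoter peaks, and outside promoters its interval held 0 (0.93, −0.65 to 2.49). From the lower tier the CA repeat differed by 0.45 points (−0.44 to 1.42), and by 1.54, −0.37 and 0.954 points in the replicates.

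The other 2 motifs were the pyrimidine start CTTTT at −2.99 points (−5.23 to −0.75) and TGCATA, the core of the su(Hw) element, at −1.61 points (−3.18 to −0.03), both lower in 3 of 3 replicates. With windows of 200 bp on each side neither interval left out 0, at −0.65 points (−2.27 to 0.97) and −1.07 points (−3.04 to 0.90), and with 50 bp that of TGCATA did not (−0.82, −1.99 to 0.35). The TATA box and the CA repeat kept intervals that left out 0 with both. With 36 such intervals over both comparisons, some would leave out 0 without a difference. Against the first tier and over all peaks, the TATA box was the only motif whose interval left out 0 in each of the 3 replicates' own lists. At promoter peaks the CA repeat did so as well, at 1.94, 2.36 and 2.55 points.

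GA repeats were more frequent in the second tier than in the lower tier as a whole. Their difference from the first tier depended on the window. GAGAG was found in 28.5% of members, 28.3% of the first tier and 24.9% of the lower, and in 24.99% of all TSS windows. In the next 3545 peaks below, by bins of 709, its share was 28.3%, 27.1%, 28.2%, 26.8% and 26.1%. Bins of the second tier ran from 27.1% to 29.8%, so the ranks just below were close to it. The difference from the lower tier was 3.62 points (2.06 to 5.23), with 3.38, 4.43 and 5.30 points in the replicates, and 3.16 points (0.73 to 5.65) at promoter peaks. From the first tier it was 0.20 points (−1.90 to 2.30), but with 200 bp on each side it was −4.74 points (−7.06 to −2.41). The longer repeat GAGAGAG, every match of which also holds GAGAG, was in 7.25%, 6.74% and 4.35% of the second, first and lower tiers and in 4.69% of TSS windows. Its difference from the first tier was 0.51 points (−0.68 to 1.70), and −3.81 points (−5.46 to −2.16) with 200 bp on each side. Against the lower tier both repeats were higher with windows of 50, 100 and 200 bp. At promoter peaks alone these GA repeats were the only 2 of the 18 motifs whose pooled interval against the lower tier left out 0. In the replicates' own lists the DRE interval there also left out 0 in 3 of 3, at 1.48, 1.63 and 0.919 points. Housekeeping elements were less frequent at second-tier promoter peaks than in all TSS windows. Among promoter peaks of the pooled list, their differences from the other tiers had intervals that held 0. For the DRE these were −0.03 points (−1.21 to 1.18) from the first tier and 0.59 (−0.28 to 1.62) from the lower. For the M1BP element they were 0.41 (−0.52 to 1.37) and 0.15 (−0.56 to 1.03), and for CGATA 2.87 (−0.12 to 5.85) and 1.46 (−0.96 to 3.95). TATCGATA (the DRE, which holds CGATA) was in 3.34% of promoter members and 1.97% of all members, against 6.45% of TSS windows. GGTCACACT (the M1BP element) was in 2.23% and 1.18%, against 4.42%, and CGATA in 30.7% and 26.5%, against 37.1%.

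Most members were found again in every replicate, but few held the same place. A member was matched to the best-ranked replicate peak that it overlapped by 1 bp or more. Since the pooled list was made from these replicates, the ranks are a description. All 3 replicates had such a peak for 3183 members (89.8%), against 99.1% of the first tier and 32.0% of the lower tier. Only 739 members (20.8%) lay within the best 7090 ranks of every replicate, against 86.5% of the first tier. In their own second tier in all 3 replicates lay 209 members (5.90%).

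By replicate, 23.1%, 21.1% and 21.4% of members lay in the first tier of replicates 1, 2 and 3, and 32.0%, 45.9% and 41.2% in the second. Lower ranks took 38.3%, 31.6% and 35.0%, and 6.57%, 1.47% and 2.28% had no peak at all. The median ranks were 5964, 5469 and 5650. For a member found in all 3, the worst replicate rank was a median of 2.78 times the best (quartiles 1.89 and 4.28). Replicate 1 gave the worst rank for 38.5% of them, replicate 2 for 30.3% and replicate 3 for 31.2%. In the best 7090 ranks of every replicate lay 23.6% of promoter, 19.4% of intronic and 15.6% of intergenic members. The median ratio of worst to best rank was 2.78, 2.81 and 2.78 for the same classes.

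**Figure D4:**
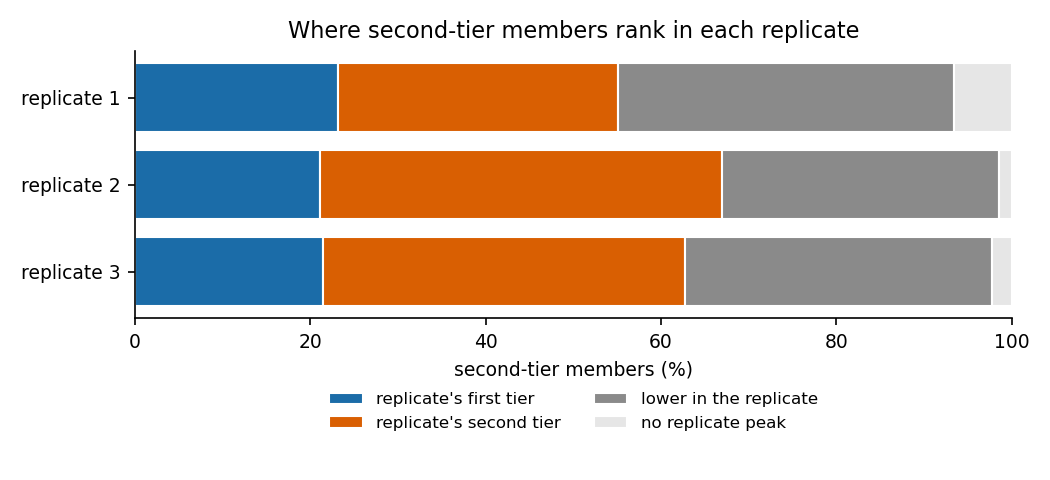
Second-tier members (horizontal axis, % of 3545) by where their matched peak ranks in each replicate's own list (1 bar per replicate). Replicate 1 has the smallest share in its own second tier (32.0%) and the largest with no peak (6.57%).

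Many members with high replicate ranks lay beside a first-tier peak, and whether their ranks belong to that neighbour was not tested. In all, 268 members (7.56%) overlapped a first-tier peak, and 239 of these lay in the best 7090 ranks of every replicate, against 500 of the other 3277. Of the 167 members in the first tier of all 3 replicates, 155 overlapped a first-tier peak. The 10 members with the best worst rank lay near Tina-1, Nup37, tara, CG1142, Msp300, CG11151, baz, Tre1, CHES-1-like and Btk, and each had its summit 199 to 214 bp from a first-tier summit. The member at Nup37, for example, was at pooled rank 5475, and its matched peaks were at ranks 58, 134 and 102. Where summits had to lie within 100 bp, the mean share of members in the best 7090 ranks of a replicate was 48.5%, against 61.6%.

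Among members that overlapped no first-tier peak, those with the best worst rank were chosen after their values were seen. Treh, for the sugar-splitting enzyme trehalase, had a promoter peak at ranks 1864, 1500 and 1583. Its summit lay 213 bp from a first-tier summit, within the range of the 10 members just described, and whether these ranks belong to the neighbour was not tested. RpLP2, for a ribosomal stalk protein, had a pair of members that overlap each other and share replicate peaks at ranks 1804, 1878 and 1087. Rel, for an NF-kappaB factor of immunity, was at ranks 3337, 1495 and 1704, and cic, for the repressor Capicua, at ranks 1361, 3355 and 3193. The tara intron printed above was at ranks 1557, 2814 and 2195, with replicate signals of 45.1, 56.6 and 55.5.

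The 10 members of highest pooled signal lay near Ubc6, RpL6, C3G, CG10898, ru, PRAS40, Nmda1, CG10481, CG11961 and CG9328. Replicates are compared by rank, since signal is on each replicate's own scale, on which the second tier ran from 30.1 to 21.5 in replicate 1, from 50.3 to 34.7 in replicate 2 and from 43.8 to 30.1 in replicate 3. RpL6, for a protein of the large ribosomal subunit, had signals of 33.9, 38.3 and 39.4 with its summit 3 bp past the TSS, and it was above the second tier in replicate 1 and within it in the others. The intronic member near ru, for a rhomboid protease of EGFR signalling, had 28.4, 49.5 and 44.1, close to the upper limit in all 3. Ubc6 had 29.2, 19.4 and 45.6, and was low in replicate 2, at rank 19223. C3G, for an activator of small GTPases, had 11.2, 59.4 and 51.4 in an intron, and was low in replicate 1, at rank 23821.

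The widest gaps between replicates at promoter members came mostly from replicate 1. RpL23, for another large-subunit protein, had signals of 9.78, 66.0 and 48.8, which are ranks 29690, 2095 and 2859. Cbs, for cystathionine beta-synthase, was at ranks 28930, 1493 and 3627. The peak near muc was at 29819, 3709 and 2942, and that near CG31999 at 29880, 3212 and 6291. CG12730 was low in replicate 3 instead, at ranks 7301, 2177 and 28991.

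A second-tier summit was the strongest promoter peak of 1470 of 13945 protein-coding genes, 10.5%, and a first-tier summit was that of 1968, 14.1%. These shares are the background for the gene lists below, which are described by counts with no test. Of 1838 genes with a second-tier summit at a TSS, 368 (20.02%) also had a first-tier one. Over the 29 protein-coding lists, 115 genes had a second-tier peak as their strongest, at 112 separate peaks, and 108 of them were found in all 3 replicates. The genes mRpL44 and Snr1 share a peak, as do mRpS24 and Apc2, and RpS28a and Axn.

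Cytoplasmic ribosomal protein genes mostly lay above the second tier and mitochondrial ones mostly below it or without a peak. Of 86 cytoplasmic genes, 64 had a first-tier peak as their strongest and 11 (12.8%, 7.29 to 21.5) a second-tier one. RpL6, RpS9 and RpL23 led them with pooled signals of 114, 109 and 108. RpS9 had 21.6, 44.0 and 40.4 in the replicates and ranked lowest in replicate 1. Only 3 of the 11 summits were upstream of the gene's own nearest TSS, against 909 of 1470 over all genes (61.8%). The first tier of this list was also below its background, with 36 of 64 upstream (56.3%) against 75.5% over all genes.

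Of 73 mitochondrial ribosomal protein genes, 16 (21.9%, 14.0 to 32.7) had a second-tier peak as their strongest, 9 a first-tier one and 29 a lower one. In this list 14 of the 16 summits were upstream, at a median position of −130 bp, against −59 bp over all genes. The 9 first-tier summits of the list were placed alike, with 8 upstream and a median of −138 bp. The strongest second-tier peaks were at mRpL47, mRpL32, mRpL48 and mRpS26. mRpL47 had signals of 32.2, 33.5 and 35.3 and was at ranks 3089, 7547 and 5315. mRpL48 had 14.0, 51.8 and 43.9, and mRpS26 had 15.7, 42.5 and 42.3, both ranked lowest in replicate 1.

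Other housekeeping lists were near or under the background, apart from the nuclear pore. Respiratory chain genes had 7 of 91 (7.69%), led by ATPsynbeta and COX5B, and proteasome genes 3 of 48, Rpn5, Rpn11 and Rpn6. Translation factors had 5 of 52, led by eIF4G2, and aminoacyl-tRNA synthetases 3 of 34, of which AspRS shares its peak with Nmda1. Nuclear pore genes had 6 of 21 (28.6%, 13.8 to 49.96) and 1 in the first tier. Nup160 and Nup133, of the outer ring of the pore, had signals of 13.7, 49.4 and 29.7 and of 15.1, 45.2 and 29.6, both low in replicate 1. Nup98-96, which encodes a pair of pore proteins, had 24.3, 40.5 and 59.4.

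Chromatin regulators of the trithorax group, with the GAGA-binding proteins, had 8 of 21 genes (38.1%, 20.8 to 59.1) in the second tier and 4 in the first. The lists are short and the interval is wide. trx, for the histone methyltransferase that names the group, had signals of 39.5, 19.2 and 40.2 and was low in replicate 2, at rank 19501. mor, for a subunit of the Brahma remodelling complex, had 33.6, 45.1 and 20.3, and Utx, for a histone demethylase, had 13.4, 38.5 and 39.8. The promoters of psq, ash2, skd, Snr1 and Bap60 followed. Polycomb group genes had 3 of 19: phol, for a DNA-binding factor, jing, and Su(z)12, for a subunit of the PRC2 complex.

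**Figure D5:**
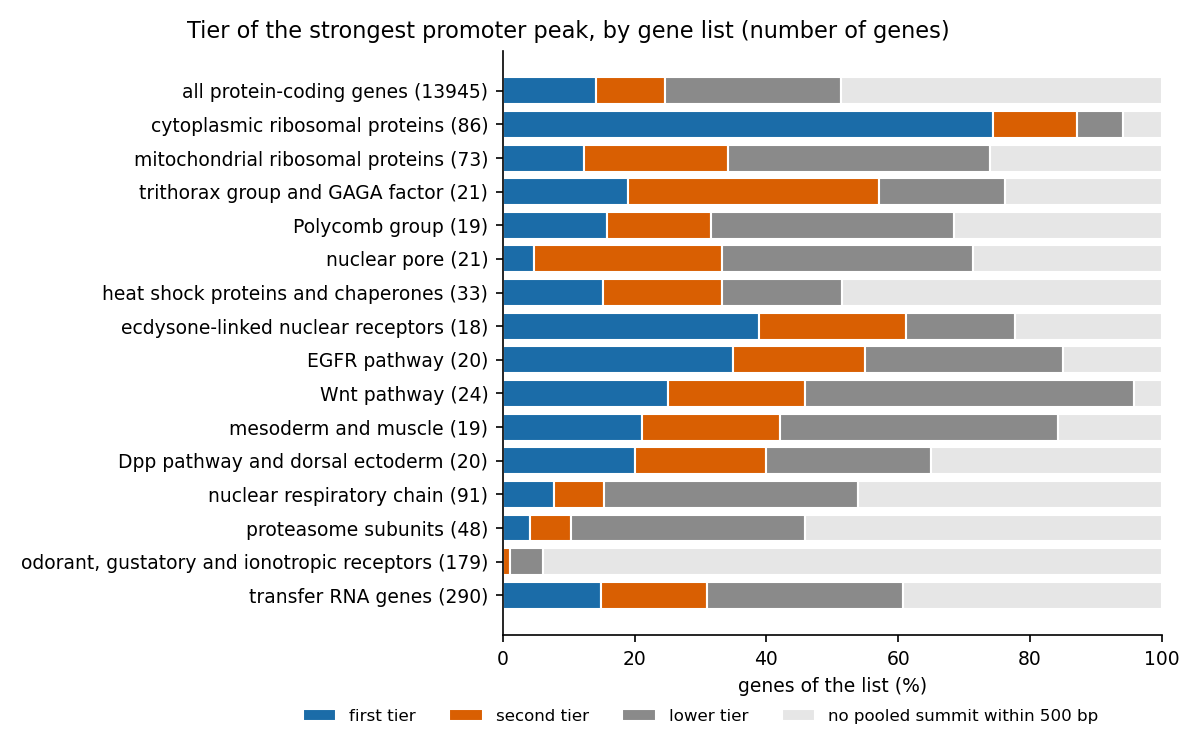
Genes of 15 of the lists and all protein-coding genes (rows, number of genes in brackets) by the tier of their strongest pooled summit within 500 bp of a TSS (horizontal axis, % of the list). The second tier holds 10.5% of all protein-coding genes, 38.1% of the 21 trithorax group genes, 21.9% of the 73 mitochondrial ribosomal protein genes and 12.8% of the 86 cytoplasmic ones.

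For every list here and in the next paragraph, the Wilson interval of the second-tier share held the 10.5% of all protein-coding genes. Signalling and developmental lists held between 1 and 5 second-tier genes each. In the EGFR pathway these were 4 of 20: the receptor gene Egfr, the adaptor drk, the ubiquitin ligase Cbl and the GTPase Ras85D, which had signals of 22.6, 49.0 and 24.5 at Egfr and 23.5, 45.1 and 44.1 at drk. The Wnt pathway had 5 of 24: the co-receptor arr, the receptor fz, the beta-catenin arm, and Apc2 and Axn of the complex that destroys it. arr had 27.6, 58.8 and 23.0, and arm had 28.8, 50.8 and 23.1, both ranked highest in replicate 2. Hormone-linked genes had 4 of 18: Eip74EF, usp, Hr38 and EcR, of which EcR and usp encode the partners of the ecdysone receptor. usp had 31.9, 35.0 and 42.7, which are ranks 3148, 6989 and 3743.

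Patterning lists gave similar counts. The mesoderm list had 4 of 19: sr, stumps, htl and how, with htl and stumps acting in FGF signalling. The Dpp list had 4 of 20: the receptor sax, Doc3, the antagonist sog and tup, and sax overlapped a first-tier peak. The neural list had 4 of 25 (pros, nerfin-1, SoxN and insc), the segmentation list 1 of 18 (cad), the Hox list 1 of 8 (Dfd) and the Notch list 1 of 19 (mib1). The Enhancer of split complex had 1 of 11 (E(spl)m2-BFM), insulin signalling 3 of 20 (Rheb, Akt and rictor), and cell cycle genes 3 of 25 (stg, E2f2 and fzr).

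Pyrimidine synthesis, the pathway of CTP synthase, had 3 of 12 genes in the second tier and 4 in the first. Dhod, for dihydroorotate dehydrogenase, had signals of 32.1, 38.3 and 22.7, r had 20.5, 26.5 and 41.1, and awd, for a nucleoside diphosphate kinase, had 28.3, 68.9 and 21.0. No replicate ranked lowest for all 3 genes. Heat shock genes and chaperones had 6 of 33 (18.2%, 8.61 to 34.4): Hsc70-3, Hsp60A, Hsp68, Hsc70-4, Hsp110 and the regulator Hsf. Glycolytic enzymes had 2 of 13 (Ald1 and Pfk), the vacuolar proton pump 2 of 33, insulator proteins 2 of 20 (mod(mdg4) and Clamp), and actins and tubulins 1 of 17 (Act87E).

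Chemosensory receptor genes, most of which are active in few cells, had 2 of 179 (1.12%) in the second tier and 0 in the first. One of them, Gr32a, was at ranks 497, 921 and 706 in the replicates, and its peak overlapped a first-tier peak. Whether these ranks belong to that neighbour was not tested. Replication-dependent histone genes had 0 of 111 (upper limit 3.35% by the Wilson interval), with no pooled summit at any. Near-identical gene copies are hard to tell apart by short reads, and whether that bears on this count was not tested. Transfer RNA genes had 47 of 290 (16.2%, 12.4 to 20.9), but these shared 27 peaks, since the genes lie in clusters. Small nucleolar RNA genes had 14 of 269, small nuclear RNA genes 3 of 32 and other noncoding RNA genes 143 of 3261 (4.39%).

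Members lay nearer to strong peaks than weaker peaks did. A first-tier summit was within 1000 bp for 532 (15.01%, 13.9 to 16.2), against 7.92% (7.58 to 8.27) of the lower tier. The share was 16.6% at promoters and 13.5% elsewhere. The median distance was 5962 bp, against 9829 bp. The 6 chromosome arms held members in much the same proportions as the other tiers, from 0.282% on arm 4 to 25.1% on arm 3R, and the interval of every difference held 0.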

How the data were processed

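GFP ChIP-seq of whole embryos gave peak lists for 3 biological replicates of 1 group, with sonicated chromatin per the labels. Nothing says how the collections were separated, so the spread between replicates may be partly technical. Per the submitters' file lists, the authors called relaxed peaks per replicate against 1 control, called them again on the 3 replicates together, and derived the optimal list from these lists by IDR. Aligner, caller and IDR limit are not given in the sources used here. Each deposited signal is the authors' value for each peak and served to rank peaks within a list. The deposited −log10 q-values served only as an alternative ranking. No read counts were used, so depth is unknown, and the lists were called on replicates separately and on the pool.

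Peaks were those on dm6, with coordinates counted from 1. Genes came from Ensembl (release 115, same assembly), without transposable elements, and sequence was that of Release 6. Summits were classed as promoter (within 500 bp of a TSS), then 5' untranslated, coding exon, 3' untranslated, other exon, intron and intergenic. Shares carry Wilson and differences Newcombe 95% intervals, not adjusted over the 14 annotation and 36 motif intervals, and the replicates' differences were tested by an exact sign-flip permutation. The 33 gene lists were read by the tier of each gene's strongest promoter summit. Genes were named by a rule: the 10 members of highest signal, the 10 with the best worst replicate rank, the 5 promoter members with the widest rank gap, and up to 4 members per list, of which 1 is not reported here. Further names were chosen after their values were seen. Members, lists, motifs and tests were chosen with earlier results of these data known. Python 3.11.15, numpy 2.4.6, pandas 2.3.3, scipy 1.17.1, statsmodels 0.14.6 and matplotlib 3.10.9 were used.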

Additional observations from a re-analysis of the deposited data

How the results depend on the processing

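Of 157 recomputed values, 115 kept their direction and call or stayed near the main value. The differences of promoter, intron, intergenic and coding exon shares from the lower tier kept direction and call under every alternative run, as did the upstream share against the first tier, but their sizes moved. Against only the next 3545 peaks the first 4 were 7.90, −4.37, −1.78 and −1.21 points. With a promoter window of 100 bp promoters gave 12.1, introns −3.40 and intergenic sequence −2.21 points, and the upstream difference was −8.68. Leaving out a replicate means averaging the other replicates' own lists. It gave −8.52 to −6.36 points for the promoter share against the first tier and 19.3 to 20.5 against the lower.

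A promoter window of 100 bp turned the difference from the first tier for promoters (1.97 points), introns (−1.92) and intergenic sequence (−3.72), turned the upstream difference from the lower tier (−3.25), and left 738 genes with a second-tier peak as their strongest. With 1000 bp the intron difference was 2.48 and the coding exon difference 0.141 against the first tier, and the upstream difference from the lower tier was 4.02. The intron difference from the first tier passed with protein-coding TSSs alone (2.26), with ranking by −log10 q (2.26), with summits over 500 bp from every stronger one (3.27), with members found in every replicate (2.43), with members overlapping no first-tier peak (2.84, chosen after seeing the data), and in the replicates' lists (mean 4.34, 3.84 to 4.85 without a replicate). The intergenic difference did not pass with −log10 q ranking (1.18), in the stronger members alone (0.539, where coding exons gave 0.282) or in the replicates (mean 1.35, 0.959 to 1.58). The upstream difference from the lower tier passed with −log10 q ranking (3.33), stronger members (3.81), members found in every replicate (3.25) and replicates (mean 5.89, 5.02 to 7.19), and was −0.727 against only the next 3545 peaks. The coding exon difference from the first tier was 1.30 at 100 bp and a mean of 1.19 in the replicates (0.931 to 1.54 without a replicate). Motif counts against the first tier were 4 with 50 bp windows and 5 with 200 bp, not all of the same motifs as the main 4, 2 outside promoters and 1 over the replicates (1 to 2 without a replicate). Against the lower tier they were 7 with 50 bp windows and 2 at promoters. Summits within 100 bp put 48.5% of members in a replicate's best 7090 ranks. A first-tier summit was within 500 bp of 7.70% and within 5000 bp of 45.4%. The causes were not tested. Depth is unknown, so weak peaks cannot be told from background by counts. With 1 group of samples no groups could be paired, and the replicates' differences between tiers were each taken within 1 replicate's list.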
